A study of Mus musculus with 6 samples.

Results

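Transcripts for the clearance of noradrenaline and for its receptors were followed in mouse hearts with and without Elac2. The 8 genes described are the monoamine oxidases Maoa and Maob, the extraneuronal monoamine transporter Slc22a3, the adrenergic receptors Adrb1, Adrb3, Adra1a and Adra1b, and the receptor kinase Grk5, of 51888 rows in the count tables. They were selected from measured values, because their levels in these same libraries were already known. Their differences are therefore given as a description. No p-value is given for them, and nothing is read from their calls. Of the 8, 7 had enough counts to be among the 14302 genes tested, and Adrb3 did not.

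Hearts of 3 control mice and of 3 Elac2 knockout mice, all C57BL/6, gave 1 library each of total RNA. All 6 mice are L/L in the sample titles, which do not spell the letters out, and the growth protocol describes an Elac2 exon flanked by loxP sites. The labels give the control genotype as Elac2 +/+ and the knockout genotype as Elac2 -/-. The knockouts also carry cre, driven by the muscle creatine kinase promoter, which is active in striated muscle. The controls lack cre, so effects of cre and of the loss of Elac2 cannot be told apart. Technical replicates of each mouse were sequenced, and 1 count column per mouse was used. Age and sex are not given in the labels.

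Noradrenaline released from sympathetic nerves acts on beta receptors, which raise cyclic AMP through the stimulatory G protein, and on alpha1 receptors, which act through Gq and phospholipase C. The transmitter is removed by reuptake into the nerve, by low-affinity transporters on other cells such as the product of Slc22a3, and by breakdown. Monoamine oxidases A and B sit on the outer mitochondrial membrane and turn monoamines into aldehydes with release of hydrogen peroxide. Receptor kinases such as that of Grk5 phosphorylate activated receptors and uncouple them from their G proteins.

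The control libraries held 12057962 to 14276410 counts and the knockout libraries 9850100 to 14461110. Mitochondrial-encoded features took 49.3 to 61.1% of counts in controls and 33.3 to 36.7% in knockouts. Levels are CPM, counts relative to the library size after scaling by the trimmed mean of M-values (TMM), which places the median of all tested genes at a log2 fold change of -0.01. With library size alone that median lay at 0.68, so every difference stated here is relative to the bulk of genes. Elac2 itself (chromosome 11, 64979038 to 65002069) fell, from 15.1, 14.0 and 13.0 CPM in the controls to 5.36, 5.63 and 6.52 CPM in the knockouts, and the counts include exons that were not removed. Of all genes tested, 36.5% were called at an adjusted p under 0.05, 18.7% as higher and 17.8% as lower in the knockouts. With library size alone the calls were 8093 higher and 552 lower, in place of 2671 and 2544. Cardiomyocyte markers summed to 93800 to 96800 CPM in controls and 66900 to 69700 CPM in knockouts, with 4 of 10 lower and 1, Nppa, higher. Most of these sums was Ttn (means of 54470 CPM in controls and 43850 CPM in knockouts, not called) and Myh6 (19270 and 7712 CPM, called lower). Endothelial markers summed to 729 to 810 CPM in controls and 539 to 665 CPM in knockouts, and smooth muscle and pericyte markers to 1170 to 1430 CPM and 742 to 788 CPM, with 4 of the latter 10 lower and 2, Cnn1 and Cspg4, higher. Sums were higher in every knockout for Schwann cell markers, at 28.6 to 36.0 CPM in controls and 40.5 to 45.4 CPM in knockouts, of which Ncam1 took 6.62 to 6.78 and 17.7 to 23.5 CPM. Without Ncam1, the rest of these sums overlapped between groups. The sums of fibroblast markers (1220 to 1810 and 1770 to 3040 CPM) and of erythroid markers (522 to 1790 and 1440 to 2940 CPM) overlapped between groups. These sums too are relative to the bulk of genes. With library size alone, 3 of the 10 endothelial markers were called higher and 0 lower, in place of 0 and 4. Cardiomyocyte markers then had 1 higher and 2 lower, and smooth muscle and pericyte markers 3 higher and 1 lower. In whole hearts, fewer cells of a type and less RNA per cell cannot be told apart, and the part of these markers in the differences described here was not tested.

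Maoa encodes monoamine oxidase A, which prefers noradrenaline and serotonin as substrates. It lies on chromosome X, 16619698 to 16687818, on the plus strand of mm10 (ENSMUSG00000025037.6 in GENCODE M21). The 250 bases before its start are shown because this gene had the highest fold change of the 8. They come from the RefSeq promoter table (GRCm38.p6, the same build as mm10), at chrX:16619448-16619697 on the plus strand, and the capitals mark a GC box, GGGCGG read on the other strand, that starts 46 bases before the gene's start.

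Maoa promoter: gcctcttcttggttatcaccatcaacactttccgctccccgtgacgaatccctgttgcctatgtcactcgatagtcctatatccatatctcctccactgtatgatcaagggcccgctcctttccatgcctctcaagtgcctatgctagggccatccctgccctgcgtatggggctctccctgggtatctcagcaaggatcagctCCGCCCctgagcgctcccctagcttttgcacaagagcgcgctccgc

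A GC box on either strand was present in 32.7% of the 32851 promoter windows of this length, so its presence is common. The other motifs sought were the TATA box TATAAA (12.4% of windows), the cyclic AMP response element TGACGTCA (1.55%), the E-box CACGTG (6.02%) and the amino acid response element core TGATGNAA (3.45%). None of these 4 was found in the window of Maoa or of any other gene of the 8 that the table holds.

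Maoa counts were 53, 29 and 26 in the control libraries and 2900, 2743 and 1635 in the knockout libraries. These correspond to 3.99, 3.22 and 3.02 CPM in controls and 154, 159 and 132 CPM in knockouts. The 3 knockout libraries lay close together and far above every control. Mean levels were 3.41 ± 0.51 CPM and 148 ± 14.7 CPM (SD over 3 mice). The log2 fold change was 5.42 (SE 0.16), or 42.8-fold. The authors' deposited table gives 5.45 (SE 0.21) for this gene. Leaving out each library in turn moved the value between 5.35 and 5.57.

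Maob encodes monoamine oxidase B, which prefers phenylethylamine and related amines. The gene (ENSMUSG00000040147.14) lies next to Maoa on chromosome X, 16709282 to 16817366, on the minus strand, so that the 3' ends of both genes face each other across 21463 bases. Its levels were 23.6, 18.7 and 21.7 CPM in controls and 1.96, 3.72 and 5.56 CPM in knockouts. Every knockout library was below every control, the opposite order to that of Maoa. Means were 21.3 ± 2.50 and 3.75 ± 1.80 CPM (SD over 3 mice), which gave a log2 fold change of -2.55 (SE 0.29). The next gene beyond each of the pair was close to silent in all 6 libraries, with at most 1 count for Ndp beyond Maob and 0 for Cypt1 beyond Maoa.

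Because the 2 oxidases differ in exon length, their levels were compared per kilobase of merged exon. Maoa was at 0.957, 0.773 and 0.725 CPM per kb in the controls, and Maob at 8.47, 6.69 and 7.79. Maob was thus the more abundant monoamine oxidase transcript in each control heart. In the knockouts Maoa was at 36.9, 38.2 and 31.6 CPM per kb, and Maob at 0.704, 1.33 and 1.99. Maoa made up 8.51 to 10.4% of the summed oxidase transcript level in controls and 94.1 to 98.1% in knockouts. The sum itself was 8.47 ± 0.981 CPM per kb over the 3 controls and 36.9 ± 3.06 over the 3 knockouts (SD).

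Slc22a3 encodes organic cation transporter 3, the extraneuronal monoamine carrier (ENSMUSG00000023828.2), and lies on chromosome 17, 12418960 to 12507704, on the minus strand. It is shown with its upstream 250 bases, at chr17:12507705-12507954 on the minus strand, since it had the most negative fold change of the 8. No capitals appear because none of the motifs above was found.

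Slc22a3 promoter: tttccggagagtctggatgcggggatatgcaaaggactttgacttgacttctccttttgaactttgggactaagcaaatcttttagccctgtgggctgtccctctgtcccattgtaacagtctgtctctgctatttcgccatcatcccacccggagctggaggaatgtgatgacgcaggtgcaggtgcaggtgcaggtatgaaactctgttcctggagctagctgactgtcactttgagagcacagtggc

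Reads of Slc22a3 numbered 22, 20 and 22 in the control libraries, against 1, 1 and 2 in the knockout libraries. That is 1.66, 2.22 and 2.56 CPM against 0.05, 0.06 and 0.16 CPM, so the gene was scarce in control hearts and scarcer in each knockout heart. The groups did not overlap. Summed over each group and set against the TMM-scaled library sizes, 64 counts against 4 gave a ratio of control to knockout of 25.1, with a 95% exact interval of 9.34 to 94.9 that covers counting error only. The fitted log2 fold change was -4.52 (SE 0.47), and it lay between -5.03 and -4.24 with 1 library left out. Slc22a3 shares 420 exon bases with Plg on the other strand, but Plg itself had 0 counts in every control and at most 1 in a knockout.

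**Figure D1:**
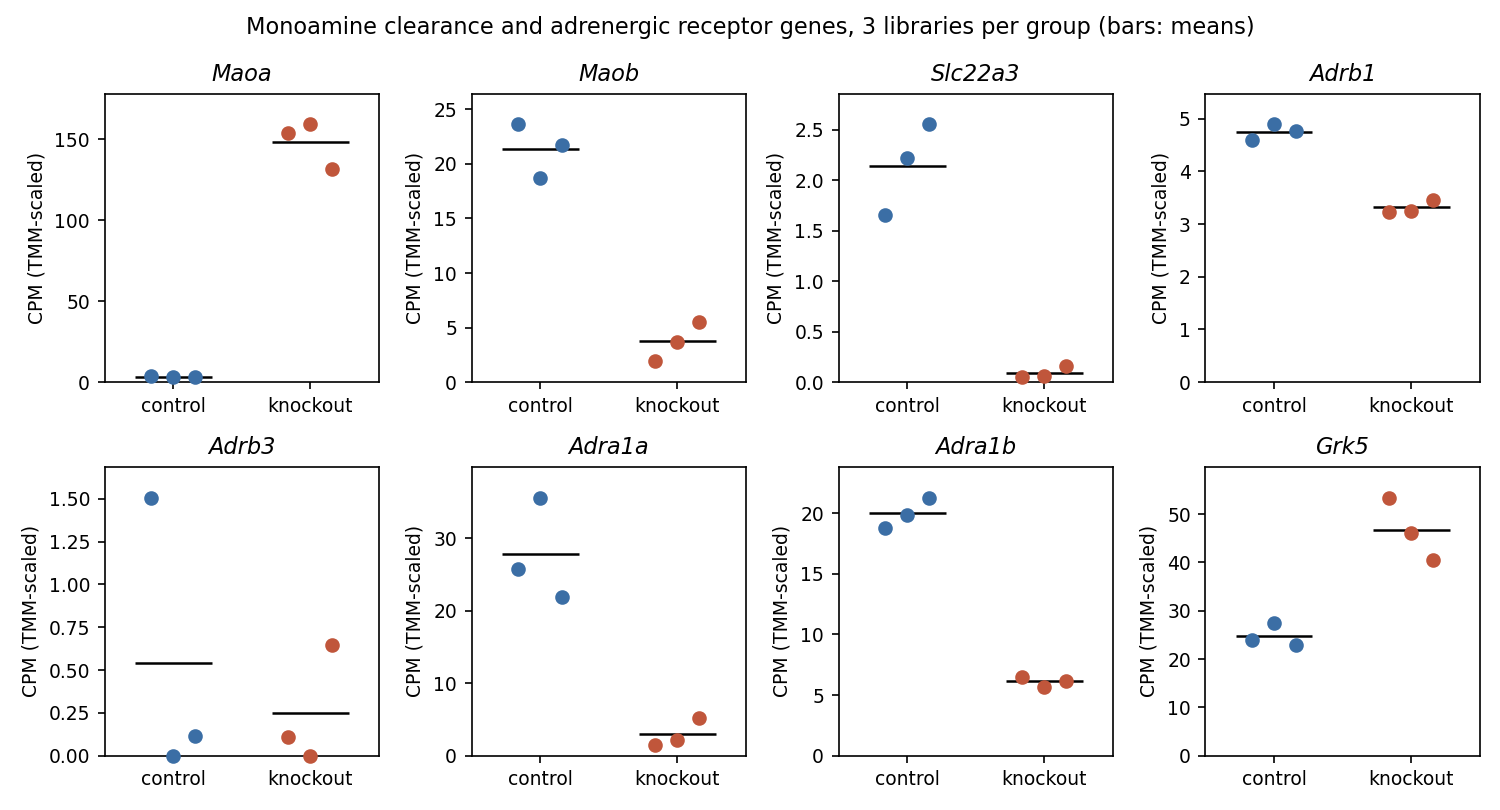
CPM of the 8 genes in each library, with a panel and a linear axis from 0 for each gene; points are libraries and bars the means of 3 control (blue) or 3 knockout (red) libraries. Maoa and Grk5 lay above all controls, 5 genes lay below all controls, and the groups overlapped for Adrb3.

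The alpha1 receptor transcripts Adra1b and Adra1a were the most abundant of the adrenergic receptors in the control hearts. Adra1b encodes the alpha1B receptor (ENSMUSG00000050541.14, chromosome 11, 43774606 to 43901210, minus strand). Its levels were 18.8, 19.9 and 21.3 CPM in controls and 6.47, 5.69 and 6.20 CPM in knockouts. Both groups were tight and lay apart, with a log2 fold change of -1.70 (SE 0.14). RefSeq gives 2 start sites for it, of which 1 has a GC box 185 bases upstream and the other none.

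Adra1a encodes the alpha1A receptor (ENSMUSG00000045875.12, chromosome 14, 66635251 to 66771168, plus strand). It was at 25.8, 35.6 and 22.0 CPM in controls and at 1.49, 2.15 and 5.15 CPM in knockouts. The knockout values spread more widely than those of Adra1b but stayed below every control, and the log2 fold change was -3.31 (SE 0.37). Without knockout 3, the highest of its group, the value was -3.93. Adra1a made up 28.6 to 40.9% of the alpha1A and alpha1B transcript level per kb in controls and 8.17 to 24.4% in knockouts, again without overlap.

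Adrb1 encodes the beta1 receptor, the main beta receptor of cardiomyocytes (ENSMUSG00000035283.4, chromosome 19, 56722199 to 56733113, plus strand). It was at 4.59, 4.89 and 4.76 CPM in controls and 3.24, 3.25 and 3.46 CPM in knockouts. The groups did not overlap, but the gap was small, with a log2 fold change of -0.52 (SE 0.18) that turned to 0.18 with library size alone. The authors' deposited table gives -0.49 with an SE of 0.30 for it. Its direction therefore holds relative to the bulk of genes and not per total count. The RefSeq window upstream of Adrb1, at chr19:56721867-56722116, holds 1 GC box, 202 bases before the RefSeq start. That start lies upstream of the gene bound given above.

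Adrb3 encodes the beta3 receptor, best known from adipocytes (ENSMUSG00000031489.15, chromosome 8, 27225776 to 27250616, minus strand). Control libraries held 20, 0 and 1 counts of it and knockout libraries 2, 0 and 8, so the groups overlapped and the mean of each rests on 1 library. The libraries with most Adrb3, control 1 and knockout 3, were also those with most adipocyte marker RNA. For Ucp1, the uncoupling protein of brown fat, counts were 287, 7 and 1 in control mice against 18, 8 and 134 in knockout mice. Those of Adipoq, which encodes adiponectin, were 85, 8 and 11 against 9, 16 and 148. The 10 adipocyte markers summed to 148, 51.6 and 49.8 CPM in controls and 26.1, 40.6 and 145 CPM in knockouts. The part of this fat RNA in the Adrb3 values was not tested. The authors' deposited table gives Adrb3 a log2 fold change of -1.13 with an SE of 2.31. An antisense gene, Gm45470, shares 839 exon bases with Adrb3 and had at most 3 counts in any library.

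**Figure D2:**
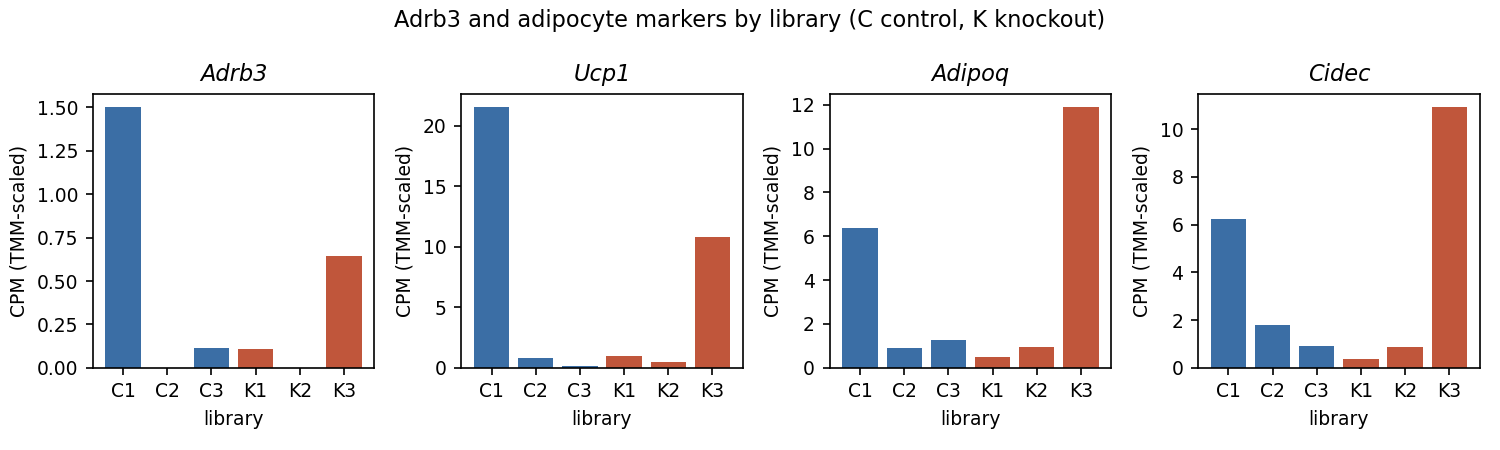
CPM of Adrb3 and of the adipocyte markers Ucp1, Adipoq and Cidec in the 6 libraries (C control, K knockout), as bars from 0. Control 1 and knockout 3 carry the tallest bars in all 4 panels.

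The 4 other adrenergic receptors described here, Adra1d, Adra2a, Adra2b and Adra2c, were low. Adra1d, the alpha1D receptor, had 4 to 19 counts in a library, and of the alpha2 receptors Adra2b had 5 to 11, Adra2c at most 3 and Adra2a at most 1. None of these 4 passed the filter on low counts. Without knockout 1, more genes entered the test and Adra2b was called lower.

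Per kilobase of exon, the order of the higher of these 8 receptors in controls was Adra1b (5.91 ± 0.363 CPM per kb), Adra1a (3.18 ± 0.804), Adrb1 (1.40 ± 0.0446) and Adra1d (0.530 ± 0.193). Each of these stood clear of the next, and Adra2b, Adrb3, Adra2c and Adra2a followed, each overlapping with its neighbour. In knockouts Adra1b still led at 1.81 ± 0.118 CPM per kb, and Adrb1 came before Adra1a, at 0.981 ± 0.0372 against 0.336 ± 0.224, without overlap. Adra1a overlapped with Adra1d (0.265 ± 0.167). The levels of the 8 receptors summed to 11.3, 12.2 and 11 CPM per kb in controls and 3.41, 3.47 and 3.97 in knockouts. The alpha1 receptors took 82.3 to 85.1% of that sum in controls and 65.4 to 68.8% in knockouts. Adrb1 took 11.9 to 12.8% of the sum in controls and 25.8 to 28% in knockouts, although its own TMM-scaled level was lower there, a direction that library size alone turns.

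**Figure D3:**
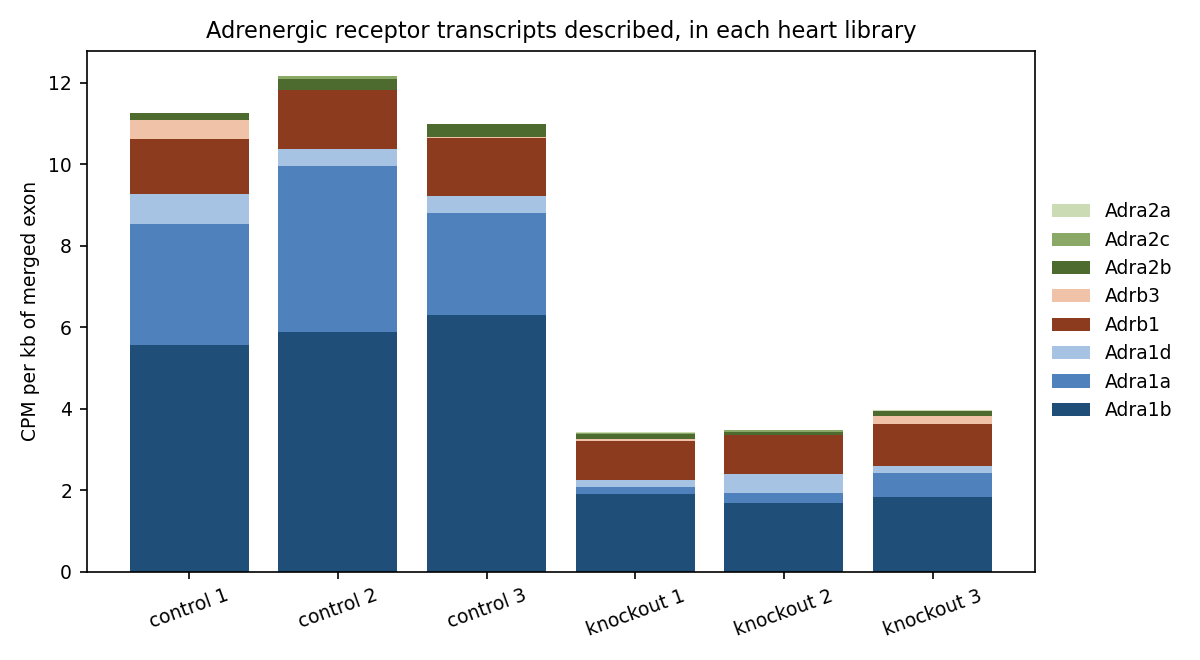
Stacked levels of the 8 adrenergic receptor transcripts described, in each library, in CPM per kb of merged exon, with alpha1 receptors in blue, Adrb1 and Adrb3 in red-brown and alpha2 in green. The 3 knockout stacks are at 3.41 to 3.97 and the controls at 11 to 12.2, and the blue part makes most of the gap.

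Grk5 encodes G protein-coupled receptor kinase 5, a membrane-bound kinase of the heart's receptors (ENSMUSG00000003228.8, chromosome 19, 60889749 to 61095968, plus strand). Its levels were 24.0, 27.5 and 23.0 CPM in controls and 53.3, 46.0 and 40.4 CPM in knockouts. All knockout libraries lay above all controls, and the log2 fold change was 0.91 (SE 0.13). Grk5 was, with Maoa, one of the 2 genes of the 8 that were higher in the knockouts. Per kb of exon its level was 3.52 ± 0.331 CPM in controls and 6.6 ± 0.918 in knockouts (SD over 3 mice).

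Among the 7 tested genes of the 8, 2 were called higher and 5 lower, beside 18.7% and 17.8% of all genes. Those 7 were the ones without overlap between groups, 2 above and 5 below all controls, beside 26.2% and 24.5% of all genes tested. The smallest difference among the lower genes, that of Adrb1, turns with library size alone. Since the same values chose them, nothing is read from these counts. Their median log2 fold change was -1.70. In 6 of the 7, the knockout library nearest to the controls was knockout 3, and for Adra1b it was knockout 1. The share of all tested genes with knockout 3 nearest is not given here, so nothing about the 7 is read from this. Knockout 3 also had the fewest counts, the most Elac2 and the most adipocyte marker RNA of its group. The part of any of these in the differences was not tested.

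The genes whose pattern over the 6 libraries was most like that of Maoa were sought among 12259 protein-coding genes, by the root mean square difference of log2 CPM centred on the controls. Slc7a11, the cystine transporter subunit xCT, came nearest at 0.223, with a mean of 0.19 CPM in controls and 12.8 in knockouts. Asns, asparagine synthetase, followed at 0.285, with 2.50 and 113 CPM. Cdsn, corneodesmosin, came after these at 0.327, with 0.025 and 5.43 CPM, and had 1 count in all controls together. Slc7a11 had 6. The fitted log2 fold changes of Slc7a11, Asns and Cdsn were 5.97, 5.49 and 7.03, against 5.42 for Maoa. The prior count of 2 in the log2 CPM shrinks the measured difference for genes with so few control counts.

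Beyond the 8, 182 genes of 9 lists around noradrenaline's supply, clearance and signalling were examined, of which 133 were tested. In this comparison 14 rose and 54 fell (edgeR's quasi-likelihood test, Benjamini-Hochberg adjusted p under 0.05), whereas 50 were called higher and 13 lower with library size alone. Over all genes tested, 18.7% were called higher and 17.8% lower, and the counts of each list below stand beside these shares. The median log2 fold change of the 133 was -0.34 against -0.01 for all tested genes. With control 1 and knockout 3 left out, the libraries with most fat RNA, 45 were called and 34 of them were lower, while their median stayed at -0.34. With those 2 libraries fewer, calls over all genes went from 5215 to 3680.

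Of the genes for catecholamine synthesis and storage, 1 of 11 tested genes rose and 4 fell, or 4 and 2 with library size alone. Dbh encodes dopamine beta-hydroxylase, which makes noradrenaline. Controls gave 39, 19 and 18 counts of it, knockouts gave 2, 3 and 5, which is a fall (log2 fold change -3.47, SE 0.43, adjusted p = 2.88e-04). The ratio of its summed counts, control to knockout, was 11.9 with a 95% counting interval of 6.14 to 25.9. Ddc, aromatic amino acid decarboxylase, fell from 9.93, 7.56 and 5.58 CPM to 2.07, 2.15 and 3.30 CPM (-1.66, SE 0.27, adjusted p = 0.00126). Qdpr, which regenerates tetrahydrobiopterin, also fell (-1.09) but did not pass with library size alone, and Hand2, a transcription factor, fell by 0.55 relative to the bulk of genes but stood at 0.14 with library size alone. The higher gene, Spr, sepiapterin reductase (0.45), lost its call without control 2, control 3 or knockout 2, with DESeq2, with the replicate number as a block, and at an adjusted p under 0.01. Th, the rate-limiting enzyme of the pathway, had 1 count in all 6 libraries together. Of 12 sympathetic neuron markers, 8 had fewer than 10 counts in every library and Gal was at 0. Their sums were 5.81 to 6.45 CPM in controls and 5.72 to 8.17 CPM in knockouts, and members moved in opposite directions within them. Tubb3, a neuronal tubulin, rose from 0.602, 0.778 and 0.465 CPM to 6.32, 4.06 and 2.33 CPM (2.79, adjusted p = 0.00104), Dbh fell, and Stmn2, at 1.66 to 3 CPM in controls and 1.22 to 1.37 CPM in knockouts, did not pass (adjusted p = 0.0514). The cell bodies of sympathetic neurons lie mainly in ganglia outside the heart.

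Other genes of monoamine clearance moved both ways, with 4 of 16 tested genes that rose and 5 that fell (7 and 2 with library size alone) and a median of -0.28. Comtd1, which encodes a predicted methyltransferase, rose from 1.13, 0.889 and 1.39 CPM to 5.63, 8.42 and 6.68 CPM (2.60 on the log2 scale, SE 0.26, adjusted p = 9.66e-05). The aldehyde dehydrogenases act on the aldehydes that monoamine oxidases make. Aldh2, the mitochondrial enzyme, fell from 77.0, 69.2 and 68.7 CPM to 28.6, 25.9 and 32.7 CPM (-1.31, SE 0.12, adjusted p = 6.01e-05). Aldh9a1 fell from 15.4, 19.0 and 22.1 CPM to 5.31, 4.30 and 5.64 CPM (-1.89, SE 0.18, adjusted p = 6.68e-05). Aldh1a1, a cytosolic enzyme, rose by 0.93. Without control 1 the number that fell was 2 in place of 5. The neuronal noradrenaline transporter Slc6a2 had at most 2 counts in a library and the plasma membrane monoamine transporter Slc29a4 at most 5, so no difference in either was detectable at this depth.

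Among receptor kinases, arrestins and regulators of G proteins, 1 of 13 tested genes rose and 4 fell, or 5 and 2 with library size alone. Grk2, the most studied kinase of beta receptors, differed by 0.14 (adjusted p = 0.362), or by 0.83 with library size alone (adjusted p = 0.00103). Grk6 differed by -0.38 (adjusted p = 0.0809), or by -0.55 without knockout 1 (adjusted p = 0.00796). Grk3 differed by -0.06 and stood at 0.65 with library size alone, and the arrestin gene Arrb1 by -0.02 and 0.69. Arrb2 differed by -0.21, and none of these passed in the fit of all 6 libraries with TMM scaling. Grk4 rose by 1.10 (SE 0.25, adjusted p = 0.00785), from 1.43, 1.45 and 2.21 CPM to 3.82, 3.77 and 3.14 CPM. Rgs2, a GTPase activator for Gq, fell from 35.1, 29.2 and 33.2 CPM to 5.52, 8.83 and 15.9 CPM (-1.71, adjusted p = 0.00194). Rgs6, its relative in the heart's muscarinic signalling, fell by 1.22, and Gpsm1 fell by 0.87 but did not pass with library size alone, or with control 1 and knockout 3 left out (adjusted p = 0.0522). With those libraries left out 2 genes of the list fell in place of 4.

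In the list of Gs, cyclic AMP and protein kinase A, 4 of 38 tested genes rose and 15 fell, with a median of -0.29, whereas 15 were higher and 1 lower with library size alone. Without control 2, control 3 or knockout 2 the number that fell was 8. Pde4a, a cyclic AMP phosphodiesterase, fell most clearly, from 29.7, 34.7 and 40.5 CPM to 4.56, 6.04 and 6.44 CPM (-2.63, SE 0.18, adjusted p = 1.08e-05). Prkaca, the main catalytic subunit of the kinase, fell by 0.82, Bves, a cyclic AMP-binding membrane protein, by 0.77, and the adenylyl cyclase Adcy9 by 0.76, and none of these 3 passed with library size alone. In the list of Gq and phospholipase C, 3 of 28 rose and 10 fell, whereas 12 were higher and 0 lower with library size alone. With control 1 and knockout 3 left out, 2 rose and 3 fell, and the list's median was -0.31 with and without them. Rcan1, an inhibitor of calcineurin, rose from 66.1, 44.6 and 62.4 CPM to 299, 168 and 152 CPM (1.84, SE 0.26, adjusted p = 5.70e-04). Gna13 rose by 0.77. Itpr1, an inositol trisphosphate receptor, fell by 0.65 and Prkce, a protein kinase C, fell by 0.51, with values of 0.05 and 0.19 with library size alone.

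Most beta-adrenergic effectors were lower relative to the bulk of genes. The list held mainly channels, calcium-handling proteins and filament proteins that protein kinase A acts on, and also Lipe, an adipocyte marker. Of its 18 genes, 13 fell and 1 rose, with a median of -0.94, or 4 and 4 with library size alone. Ryr2, the calcium release channel, fell from 3472, 3557 and 3918 CPM to 1388, 859 and 1339 CPM (-1.61, SE 0.21, adjusted p = 4.04e-04). The potassium channel gene Kcnq1 fell by 1.37 and the pacemaker channel gene Hcn4 by 2.32. Cacnb2, a calcium channel subunit, fell by 0.92 but did not pass with library size alone. The higher gene was Kcne1 (0.98, adjusted p = 0.0376), whose call needed each of control 1, control 2, knockout 2 and knockout 3. Its call was also lost with a robust fit, at an adjusted p under 0.01, and with control 1 and knockout 3 left out together. Without knockout 1 the number that rose was 2. Ryr2, Pln and Tnni3 (-0.37, not called) are also among the cardiomyocyte markers, whose TMM-scaled sum was lower in the knockouts.

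For the opposing muscarinic input, 2 of 6 tested genes fell and 0 rose, whereas 1 was lower and 2 higher with library size alone. Without knockout 1 the number that rose was 1, which was Bche, a cholinesterase gene. Chrm2, the muscarinic receptor of the heart, fell by 0.64 and stood at 0.04 with library size alone. Kcnj3, a subunit of the potassium channel that it opens, fell from 85.2, 57.2 and 87.4 CPM to 6.00, 10.04 and 30.4 CPM (-2.34, SE 0.47, adjusted p = 0.00403). Chrm2, Kcnj3 and Hcn4 are known from the atria and the conduction system, and atrial markers moved unevenly. Of 9 such markers Tbx5 fell by 1.27 and Nr2f2 fell by 0.87, Nppa rose, and their median was -0.83. Control 2 stood apart in them, with 4 counts of Bmp10 against 1533 and 1598 in the other controls and with Myl7 at 68.45 CPM against 245.4 and 202.9 CPM. The knockouts were uneven too, with Bmp10 at 7.37 CPM in knockout 2 against 145.9 and 84.8 CPM in knockouts 1 and 3. Myl7 was at 65.4 CPM in knockout 2 against 87.5 and 132 CPM. The part of atrial tissue in these values was not tested. Of 18 receptors for serotonin, dopamine and histamine, 2 were tested, and Drd2, a dopamine receptor, fell by 1.97 (adjusted p = 0.00643).

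**Figure D4:**
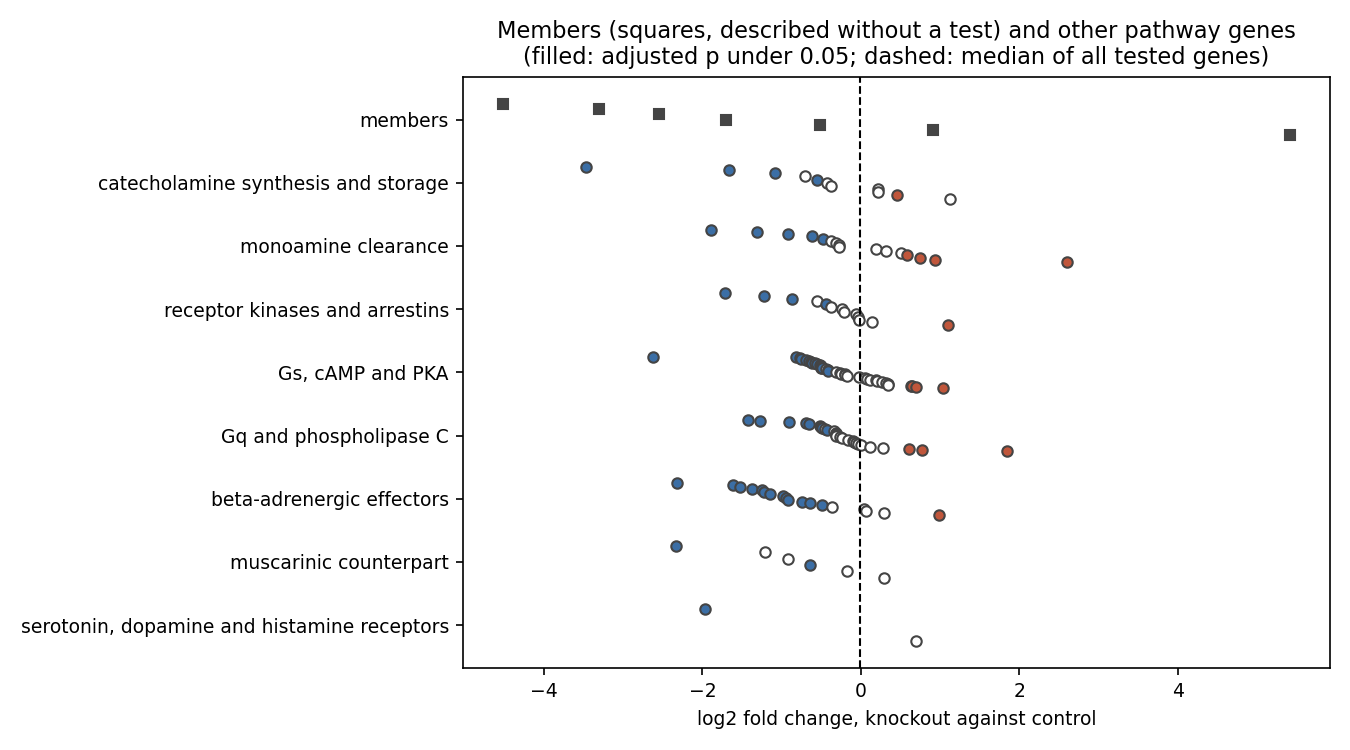
Log2 fold change, knockout against control, by list. Grey squares, whose calls are not shown, are the 7 tested genes of the 8. Circles are the tested genes of the 8 lists with at least 2 tested genes. Filled circles passed an adjusted p of 0.05, and the dashed line is the median of all genes, -0.01. Maoa, at 5.42, lies to the right of every gene of the lists, and most filled circles are on the lower side, which reverses with library size alone.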

How the data were processed

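For each of the 6 libraries the authors deposited raw counts, whole numbers of reads by gene. The submitters' processing notes name DESeq2 1.16.1, featureCounts 1.5.1, SAMtools 1.5 and HISAT2 2.0.5 with the mm10 build. How strand was treated in counting was not given in the sources used here. The authors' deposited table of differential expression gives a log2 fold change with its SE and a p-value for each gene, and the deposited normalised values were not used. Other columns of per-sample values numbered 0. A few genes of the lists are counted in the totals but not reported here.

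All genes were fitted together in edgeR 4.0.16 (R 4.3.3) with its quasi-likelihood test, TMM scaling, the filterByExpr minimum count of 10, and Benjamini-Hochberg adjustment over all genes tested. A gene was called at an adjusted p under 0.05. The SE of a log2 fold change in this fit is its absolute value divided by the square root of the test's F statistic. Log2 CPM for likeness to Maoa used a prior count of 2, over genes with a mean of at least 1 CPM in either group. The fit was also run on simulated counts with equal numbers of genes raised and lowered. That run cannot address how the choice of scaling moves the calls. Levels per kb use merged exon lengths of GENCODE M21, which held 51596 of 51875 Ensembl identifiers. Promoters of 5 of the 8 genes were in the RefSeq table (Maoa, Slc22a3, Adrb1, Adra1b and Grk5), and those of Maob, Adrb3 and Adra1a were not matched. Intervals are exact and cover counting error only.

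The 8 genes and all lists were chosen with earlier results of these data known. Named genes are Elac2, the 8, a fixed group of receptors, transporters, kinases and arrestins, up to 4 called genes per list with the smallest adjusted p, and the 3 genes most like Maoa. Spr, Aldh1a1, Kcne1, Bche and the cell type markers given were named outside this rule, after their values were seen. Chi-square values between libraries of a group were at least 8.13 per degree of freedom, above sampling noise, and each library counted as 1 replicate. Tried as alternatives were library size alone, RLE scaling, TMM computed on nuclear genes, testing all genes with a count, requiring 50 counts in 3 libraries, DESeq2 1.42.0, limma-voom (limma 3.58.1), a robust fit, each library left out, the replicate number as a block, an adjusted p under 0.01, and the authors' deposited table.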

Additional observations from a re-analysis of the deposited data

How the results depend on the processing

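The 7 fitted genes of the 8 kept their direction under all alternatives run, except Adrb1, which turned from -0.52 to 0.18 with library size alone. That scaling gave 8645 called genes in place of 5215 (8093 higher, 552 lower), and 50 higher and 13 lower genes of the lists. It turned Arrb1 to 0.69, Chrm2 to 0.04, Grk3 to 0.65, Hand2 to 0.14, Itpr1 to 0.05 and Prkce to 0.19. At an adjusted p under 0.01, 3006 genes were called (1591 higher, 1415 lower), and 9 genes of the lists were higher. With control 1 and knockout 3 left out together, an alternative chosen after seeing the data, 45 genes of the lists were called, 34 of them lower. Leaving out each library in turn gave 3694 to 5837 called genes and 54 to 74 genes of the lists. With the replicate number as a block (replicate block), 4293 genes and 60 genes of the lists were called. The labels give the numbers no meaning, and the correlations of same-numbered libraries were -0.198, 0.085 and -0.087, so they were not taken as pairs. With 4 counts for Slc22a3 and 10 for Adrb3 over the knockouts, depth limits the folds of these genes, and receptors under the filter could not be compared.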

Other observations

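Of the 6 tested Schwann cell markers 1 rose and 0 fell, and it is named here after its values were seen. Ncam1, the neural cell adhesion molecule, rose from 6.70, 6.78 and 6.62 CPM to 23.5, 17.7 and 18.6 CPM (1.57, adjusted p = 8.5e-05). It was above every control in each knockout library. Erbb3 was below every control in each knockout library, at 12.0 to 14.8 CPM and 10.1 to 10.9 CPM, and did not pass edgeR's quasi-likelihood test (-0.38, adjusted p = 0.056). Cdh19 differed by 0.06 and did not pass either. Platelet markers, which include the serotonin transporter Slc6a4, summed to 10.6 to 16.3 CPM in controls and 5.17 to 8.13 CPM in knockouts, and 3 of their 4 tested genes fell. That count was 1 without control 1, without control 2, without knockout 2 or with library size alone, and 0 with control 1 and knockout 3 left out. Mast cell markers summed to 10.9 to 13.9 CPM in controls and 8.21 to 9.29 CPM in knockouts.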
